A study of Mus musculus with 12 samples.

Results

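The genes described here encode the subunits, caps, assembly factors and inhibitor of the proteasome. They were chosen by name, as every gene of the count table whose symbol begins with Psm, a letter from a to g and a digit, which gave 50 of 20295 genes. Of these, 31 encode the constitutive 26S proteasome: 7 alpha and 7 beta subunits of the core, and 6 ATPase and 11 other subunits of the regulatory particle. The others were 3 immunoproteasome subunits, 5 alternative activators, 7 assembly chaperones, the inhibitor Psmf1 and 2 tissue-restricted core subunits (Psma8 and Psmb11). The remaining gene, Psmc3ip, is a meiotic recombination factor that only shares the beginning of its symbol with the ATPase Psmc3. After a filter on low counts, 49 of the 50 genes were tested among 13543 genes. Psmb11, the catalytic subunit of the thymus, was not tested, with 0 to 8 counts per library.

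The proteasome degrades proteins that carry ubiquitin. Its barrel-shaped core stacks alpha rings around beta rings that hold the catalytic sites, and the regulatory particle recognises, unfolds and feeds in the substrate. In immune cells and after interferon, the catalytic subunits can be exchanged for immunoproteasome forms, which favour peptides for antigen presentation. In brown adipocytes, the transcription factor NFE2L1 is known to sustain proteasome gene expression.

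All libraries were RNA of floated epididymal white adipocytes (eWAs) of lean male C57/BL6J mice, kept in a hydrogel for 2 days at 50000 cells per well. The 4 groups of 3 libraries were vehicle (DMSO), isoproterenol (ISO, a beta-adrenergic agonist that starts lipolysis) for 3 h, lipase inhibitors (Lip, per the study's methods Atglistatin against ATGL and CAY10499 against HSL), and both (Lip+ISO). One figure legend of the study names another activator for white adipocytes, whereas the sample titles name ISO, which was taken as the stimulus. These were bulk cultures, in which fewer cells of a type and less RNA per cell cannot be told apart. The labels do not say what libraries with the same replicate number share, so p-values measure the spread between these samples.

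Library totals were 22632220 to 43707557 counts, and proteasome genes took 0.441 to 0.511% of them. The 8 adipocyte markers summed to 20239.5 to 32458 CPM (counts scaled to a common library size) in every library. The markers of macrophages, T and B cells, endothelium, fibroblasts and mesothelium summed to 601 to 1019 CPM in vehicle and 1155 to 1622 CPM with ISO, and these groups did not overlap. With the inhibitors the same sum was 696 to 829 CPM without and 716 to 1016 CPM with ISO. Without inhibitors, ISO raised 5 of 9 tested macrophage markers, 1 of 2 T and B cell markers, 4 of 8 fibroblast markers, 1 of 6 mesothelial and none of 8 endothelial markers, and with inhibitors 2, 0, 0, 1 and 0 (edgeR). With replicate numbers as a block these were 7, 1, 7, 2 and 7 without inhibitors and 3, 0, 1, 1 and 5 with them. Of all genes, 12.3% rose without inhibitors and 11.5% with them, and 18.8% and 15.5% with the block. Of the 8 adipocyte markers, 2 fell in each of these 2 comparisons (edgeR), where 13.9% and 15.8% of all genes fell. No marker of any list was at 0 in all 12 libraries. The summed level of the 31 constitutive subunits was 3808 to 3911 CPM in vehicle, 4050 to 4511 with ISO, 3753 to 3858 with Lip and 4394 to 4622 with Lip+ISO. The part of other cell types in the results was not tested.

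In vehicle, the constitutive subunit genes differed widely in level per transcript length, although their products are built into the same particle. The median of the 31 genes was 85.3 CPM per kb of counted exon. Psmd8, a lid subunit of the regulatory particle, was highest at 203 ± 16.3 CPM per kb (SD, n = 3), followed by the beta subunit Psmb4 at 193 ± 5.54 and the alpha subunit Psma6 at 186 ± 6.68. The gaps between these neighbours in the order were smaller than the sum of their SDs. The 3 constitutive catalytic subunits lay close together, with 156 ± 10.2 CPM per kb for Psmb5 (chymotrypsin-like), 142 ± 7.86 for Psmb7 (trypsin-like) and 139.9 ± 6.57 for Psmb6 (caspase-like). At the lower end were the ATPase Psmc6 at 39.5 ± 0.632, the alpha subunit Psma5 at 23.7 ± 1.85 and the alpha subunit Psma3 at 6.11 ± 0.757 CPM per kb. The levels spanned 33.3-fold, and 8.58-fold without Psma3.

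**Figure D1:**
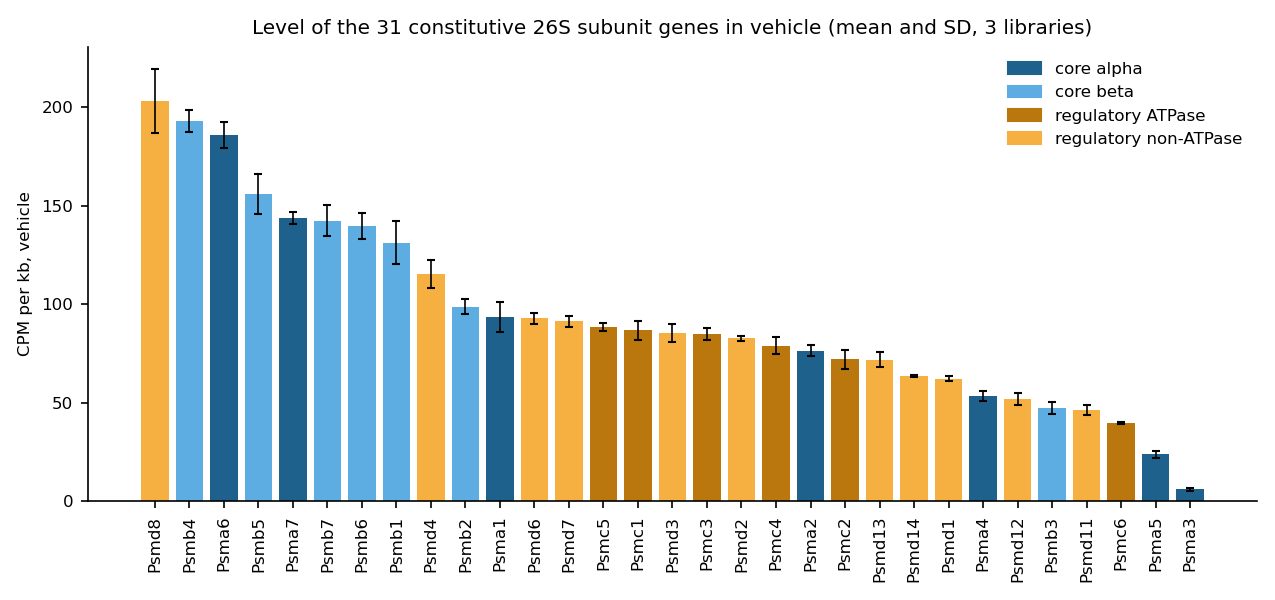
Level of the 31 constitutive 26S subunit genes in vehicle, in CPM per kb of counted exon (mean and SD of 3 libraries), by part. Psmd8, Psmb4 and Psma6 stand at 186 to 203 CPM per kb, and Psma3 at 6.11 lies below all others.

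Several of these genes have near copies in the genome, so their reads could be split or dropped in counting. Of the 50-base stretches of Psma3 transcripts, 21.7% stood at more than 1 place in the mm9 genome. The share was 59.8% for the beta subunit Psmb3, 49.2% for Psmb5 and 40.2% for Psma5, and no stretch of Psma1, Psma7 or Psmb4 was repeated. The levels of the genes with copies are uncertain, and whether copies set the low levels of Psma3 and Psma5 was not tested.

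ISO was given with lipolysis intact and with the lipases inhibited, which asks whether the response of a gene depends on lipolysis. Without inhibitors, 7 of the 49 tested proteasome genes rose and none fell (edgeR quasi-likelihood test, Benjamini-Hochberg adjusted p of at most 0.05 over all genes), with 17 at an unadjusted p under 0.05. Of all 13543 tested genes, 5262 had an unadjusted p under 0.05. DESeq2 called 10 proteasome genes higher and none lower, where it called 13.7% of all genes higher and 13.4% lower. The 7 genes were 14.3% of those tested, close to the 12.3% of all genes that rose, while 13.9% of all genes fell. All 7 were constitutive subunits, of which they made up 22.6%. Of the 31 constitutive subunits, 30 had a log2 fold change above 0, compared with 50.2% of all tested genes, and their median was 0.17. In 16 of the 31, all ISO libraries stood above all vehicle libraries, a share of 51.6% against 20.7% of all genes. When replicate numbers entered the fit as a block, 15 proteasome genes rose and 1 fell, where 18.8% of all genes rose and 19.6% fell. These 15 were 30.6% of the 49 tested, and all were constitutive subunits, of which they made up 48.4%. At a log2 fold change of at least 1, none passed, where 5.68% of all genes rose and 1.8% fell.

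With the inhibitors present, ISO gave 18 genes that rose and 1 that fell (Lip+ISO vs Lip, same test), where 11.5% of all genes rose and 15.8% fell. The 18 genes were 36.7% of the 49 tested, and all were constitutive subunits, of which they made up 58.1%. All 31 constitutive subunits had a log2 fold change above 0 (49.5% of all genes), with a median of 0.24. In 23 of the 31 the groups did not overlap, a share of 74.2% against 17.2% of all genes. The 7 genes that rose with ISO alone were all among the 18, which is 100% of the first list and 38.9% of the second. Of all genes, 897 rose in both comparisons, 53.7% of the first list and 57.4% of the second. With the replicate block, 20 proteasome genes rose (40.8%) and 1 fell, where 15.5% of all genes rose and 20.1% fell. Of the 20, 19 were constitutive subunits, of which they made up 61.3%. At a log2 fold change of at least 1, none passed, where 4.19% of all genes rose and 3.16% fell. The comparisons without and with inhibitors share no library. Across the 31 subunits their log2 fold changes had a Pearson correlation of 0.618 and a Spearman correlation of 0.45. Of the 31, 24 were larger with the inhibitors, against 47.3% of all genes. This count was 14 with library totals and 17 without the third ISO library. The subunits were measured in the same libraries and are not independent.

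**Figure D2:**
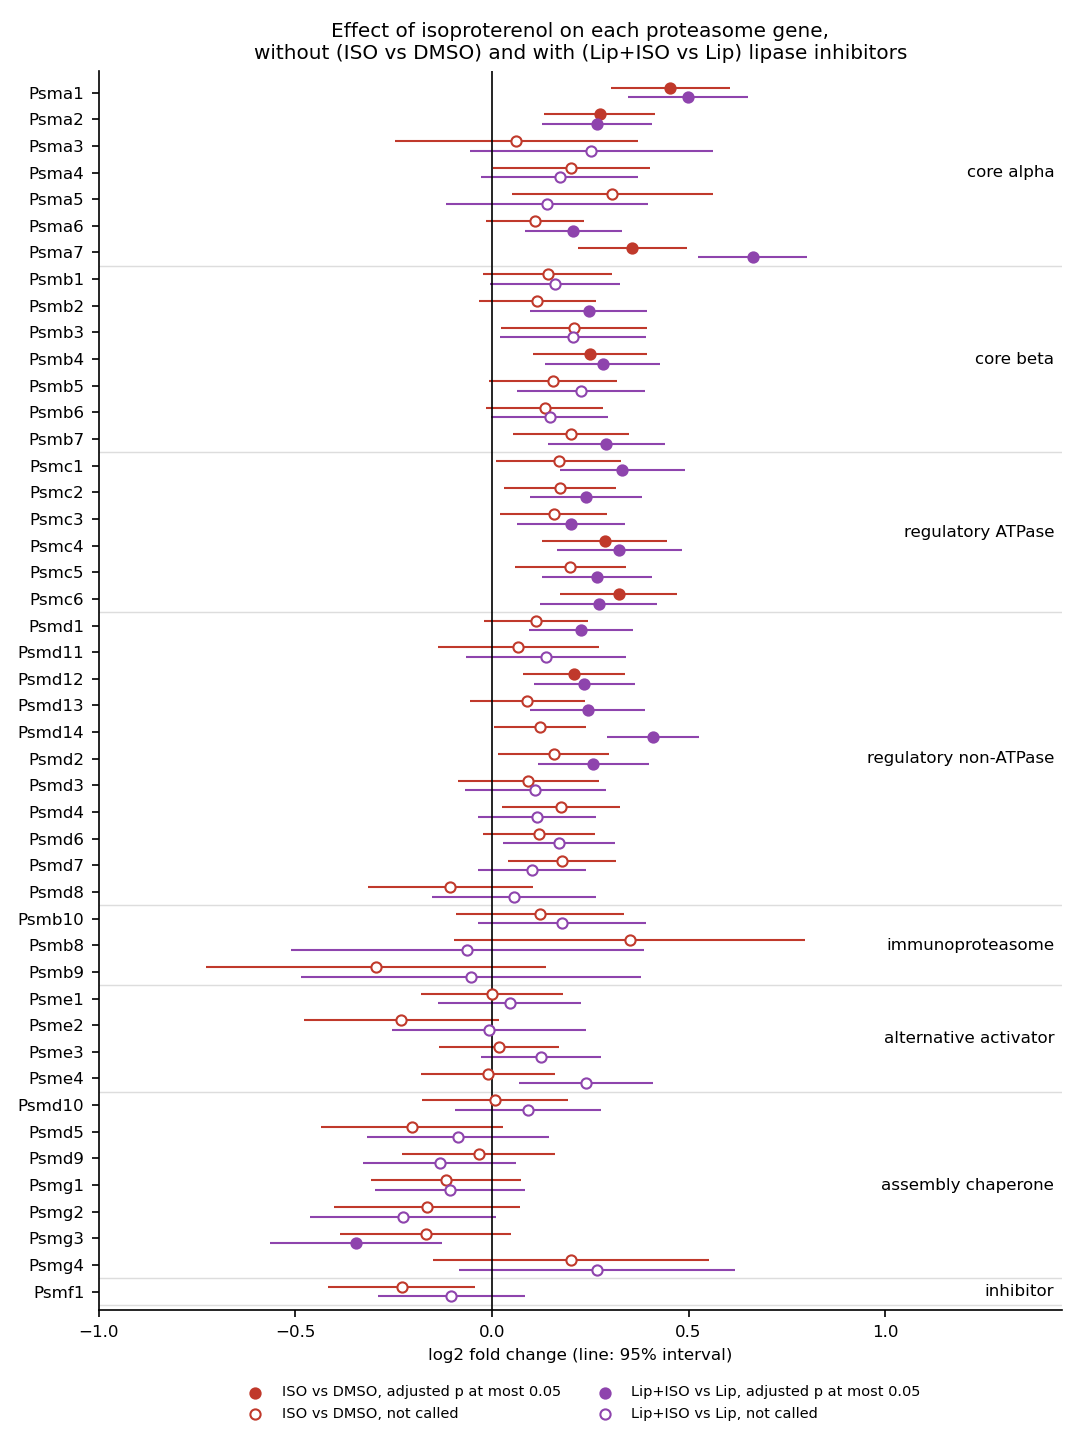
Log2 fold change with ISO for 46 proteasome genes, without inhibitors and with them, where lines are 95% intervals and filled points passed at an adjusted p of at most 0.05. Of the 31 constitutive subunits, 30 (ISO vs DMSO) and 31 (Lip+ISO vs Lip) lie above 0, whereas 5 of the 7 chaperones lie below 0 in each comparison.

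The number of calls depended on how the libraries were scaled. With library totals in place of TMM factors, 4 and 3 of the 49 tested proteasome genes rose without and with inhibitors. Of all 13543 tested genes, 1365 and 1069 rose under totals, against 1670 and 1562 under TMM. The median log2 fold change of all genes under totals was -0.0388 and -0.115. The share of higher genes among all calls moved from 47.1% to 37.0% and from 42.2% to 26.5%. Relative to the median of all genes, the median of the constitutive subunits without inhibitors was 0.167 under TMM and 0.165 under totals. With inhibitors it was 0.239 under both. A change of scaling shifts all genes of a comparison by about the same amount. This difference could therefore hardly move, and it does not test the choice of scaling. Under totals, 30 and 28 of the 31 subunits stayed above 0.

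The alpha ring, which gates entry to the core, held the largest changes in summed level among the 4 constitutive parts. Its 7 genes summed to 578 to 626 CPM in vehicle, 704 to 764 with ISO, 564 to 589 with Lip and 738 to 770 with Lip+ISO, so that neither ISO group overlapped with its control. The mean sum was 21.0% higher with ISO than in vehicle and 29.9% higher with Lip+ISO than with Lip. The mean sum of the beta ring was 13.0% and 17.0% higher, and that of the ATPases 15.4% and 20.7%. For the other regulatory subunits it was 6.78% and 12.7% higher. The sums of the beta ring and of the ATPases did not overlap with their controls in either comparison. By gene, the median log2 fold change without inhibitors was 0.27 for the alpha ring and 0.19 for the ATPases. With inhibitors these medians were 0.25 and 0.27.

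**Figure D3:**
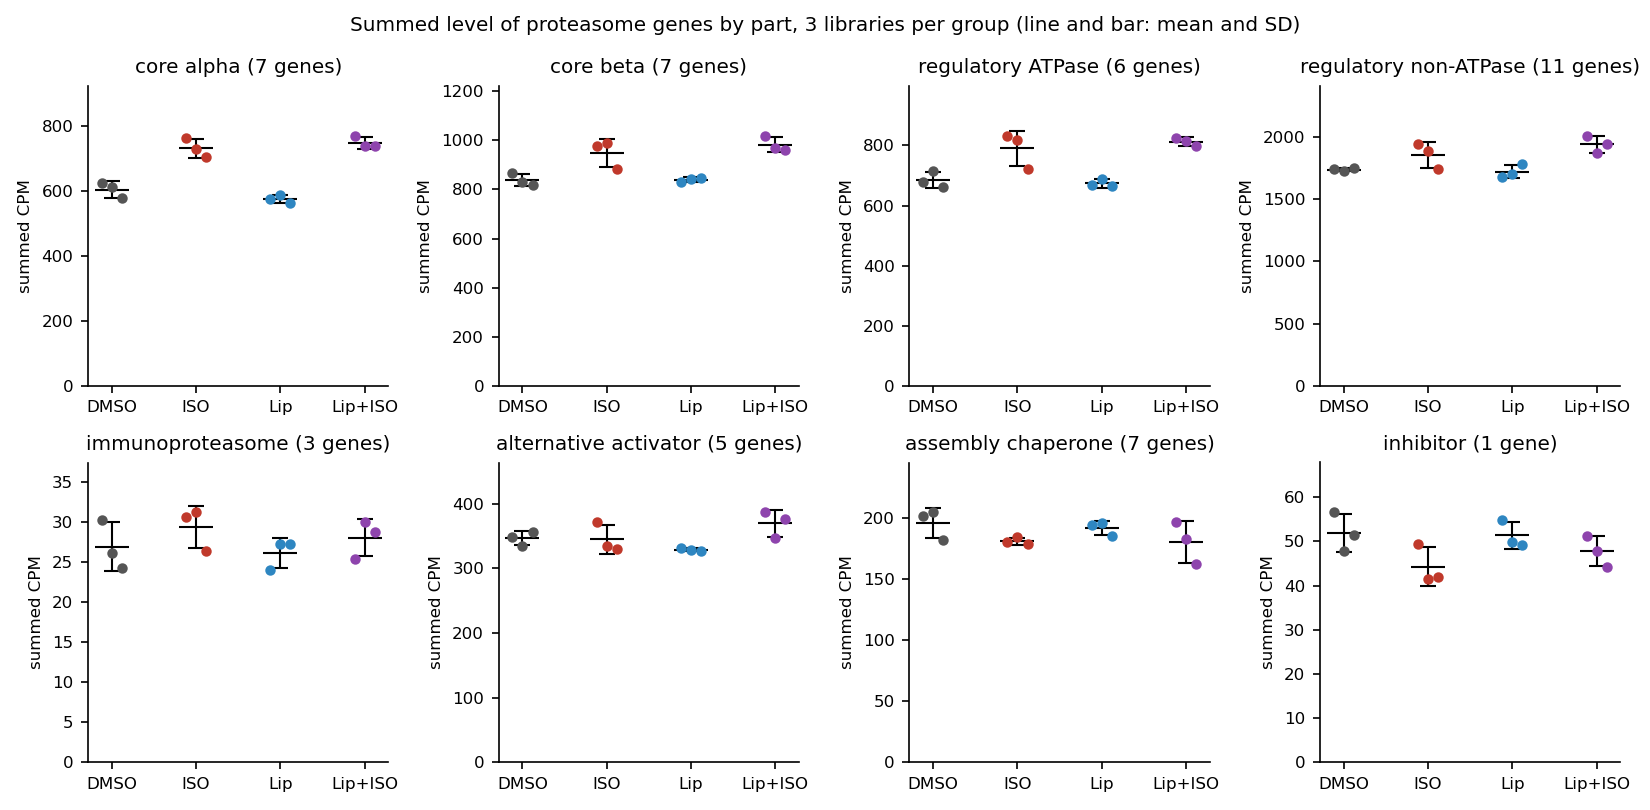
Summed level of the genes of each part in every library (points), with mean and SD, in CPM. The alpha ring stands at 704 to 770 CPM in the ISO and Lip+ISO libraries against 564 to 626 CPM in the others, and the inhibitor Psmf1 overlaps between groups.

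Psma7, an alpha subunit (mm9 chr2:179771072-179777169, minus strand), had the largest change of a constitutive subunit with inhibitors. Its level was 138, 139 and 133 CPM in vehicle, 180.3, 179 and 166 with ISO, 119, 132 and 135 with Lip, and 209.7, 201 and 201 with Lip+ISO. Every ISO library stood above every library without ISO, and the Lip+ISO libraries stood above those of ISO alone. The latter held for 3 of the 49 tested proteasome genes (6.12%) and for 11.9% of all genes. The log2 fold change was 0.36 ± 0.0703 (SE) for ISO vs DMSO, with an adjusted p of 0.00265 from edgeR's quasi-likelihood test. With inhibitors it was 0.66 ± 0.0705, or 1.58-fold (edgeR adjusted p = 1.51e-05). The difference between these responses was 0.31 ± 0.0993 on the log2 scale and did not pass (edgeR adjusted p = 0.172).

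Psma1, another subunit of the alpha ring (mm9 chr7:121408064-121419630, minus strand), had the largest change of a constitutive subunit without inhibitors. It was at 128, 115 and 109 CPM in vehicle, 170.0, 151 and 161 with ISO, 111, 108 and 100.4 with Lip, and 148, 152 and 151 with Lip+ISO. The groups with and without ISO did not overlap in either comparison, while ISO and Lip+ISO did. The log2 fold change was 0.45 ± 0.0773 without inhibitors (edgeR adjusted p = 0.001) and 0.50 ± 0.0773 with them (edgeR adjusted p = 0.000335). The difference between the responses was 0.05, with a 95% interval of -0.17 to 0.26.

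The promoters of Psma1, Psma7 and Psmd14 are shown because these genes had the 3 largest changes among those that passed with inhibitors, and because beta-adrenergic agonists act through cyclic AMP, whose factor CREB binds elements built on TGACG. The 300 bases run from 250 before to 50 after the RefSeq start (GRCm38.p6), 5′ to 3′ on the strand of the gene, with TGACG on either strand in capitals.
Psma1, chr7:114276067-114276366, minus strand: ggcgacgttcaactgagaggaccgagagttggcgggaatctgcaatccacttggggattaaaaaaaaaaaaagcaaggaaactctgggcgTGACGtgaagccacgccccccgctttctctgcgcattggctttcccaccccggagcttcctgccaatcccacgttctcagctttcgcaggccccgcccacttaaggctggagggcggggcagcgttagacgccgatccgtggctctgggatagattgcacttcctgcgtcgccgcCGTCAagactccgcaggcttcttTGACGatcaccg
Psma7, chr2:180042415-180042714, minus strand: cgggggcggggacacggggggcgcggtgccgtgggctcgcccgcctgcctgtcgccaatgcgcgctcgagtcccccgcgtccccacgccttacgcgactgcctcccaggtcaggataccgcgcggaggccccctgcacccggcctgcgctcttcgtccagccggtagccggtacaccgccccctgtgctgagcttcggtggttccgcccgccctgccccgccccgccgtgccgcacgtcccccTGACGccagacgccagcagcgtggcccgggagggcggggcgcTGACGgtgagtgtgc
Psmd14, chr2:61711444-61711743, plus strand: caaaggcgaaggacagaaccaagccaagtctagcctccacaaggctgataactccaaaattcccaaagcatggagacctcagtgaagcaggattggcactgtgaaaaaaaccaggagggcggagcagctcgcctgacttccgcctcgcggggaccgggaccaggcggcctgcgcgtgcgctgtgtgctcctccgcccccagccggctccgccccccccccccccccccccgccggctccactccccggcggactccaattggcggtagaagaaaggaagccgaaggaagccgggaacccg
The Psma1 window held 3 matches, the Psma7 window 2 and the Psmd14 window 0. Of the 50 genes, 42 had a promoter in the RefSeq table. TGACG stood in 13 of 25 promoters of constitutive subunits (52.0%), against 34.4% of the promoters of tested genes and 23.0% of all promoters. The full palindrome TGACGTCA, which holds TGACG on both strands, stood in 0 of the 42 and in 3.54% of the promoters of tested genes. A match describes letters and not binding.

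The other alpha subunits gave smaller log2 fold changes than Psma1 and Psma7 in both comparisons. Psma2 rose in both comparisons, by 0.27 on the log2 scale each time (edgeR adjusted p = 0.014 and 0.0142). Psma6 gave 0.11 without inhibitors and rose by 0.21 with them (edgeR adjusted p = 0.221 and 0.0279). Psma3, Psma4 and Psma5 did not pass in either comparison, with log2 fold changes of 0.06 to 0.31. Psma4 and Psma5 passed for ISO vs DMSO with the replicate block (edgeR adjusted p = 0.0313 and 0.00844).

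In the beta ring, Psmb4 rose in both comparisons. This subunit without a catalytic site was at 177, 188 and 184 CPM in vehicle, 211, 238 and 204 with ISO, 178, 191 and 192 with Lip, and 227, 234 and 221 with Lip+ISO. Neither ISO group overlapped with its control. The log2 fold changes were 0.25 ± 0.0742 and 0.28 ± 0.0741 (edgeR adjusted p = 0.0255 and 0.0127). Without the second ISO library, the highest of its group, the first value was 0.18 and did not pass (edgeR adjusted p = 0.126). Psmb2, another subunit without a catalytic site, rose with inhibitors by 0.25 (edgeR adjusted p = 0.0288).

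Of the constitutive catalytic subunits, Psmb7 rose with inhibitors and Psmb5 and Psmb6 did not pass. Psmb7 was at 146, 136 and 131 CPM in vehicle, 169, 159 and 148 with ISO, 140.3, 137 and 131 with Lip, and 176, 161 and 162 with Lip+ISO. Neither ISO group overlapped with its control. The log2 fold change was 0.20 ± 0.0759 without inhibitors (edgeR adjusted p = 0.0686, and 0.0122 with the replicate block) and 0.29 ± 0.0758 with them (edgeR adjusted p = 0.0118). Psmb5 gave 0.16 and 0.23 (edgeR adjusted p = 0.187 and 0.0617), and the second passed with the replicate block (edgeR adjusted p = 0.0188). Psmb6 gave 0.13 and 0.15 (edgeR adjusted p = 0.212 and 0.186).

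All 6 genes of the ATPase ring, which unfolds substrates, rose with Lip+ISO vs Lip, where 11.5% of all genes rose. Their log2 fold changes were 0.20 to 0.33. Without inhibitors Psmc4 and Psmc6 rose, where 12.3% of all genes rose. The other 4 gave 0.16 to 0.20 without passing. Psmc1, Psmc2 and Psmc5 passed as well with the replicate block (edgeR adjusted p = 0.0355, 0.0467 and 0.0225). This made 5 of 6, where 18.8% of all genes rose. Psmc6 (mm9 chr14:45949499-45968746, plus strand) was at 60.8, 62.8 and 61.8 CPM in vehicle, 80.9, 78.4 and 72.4 with ISO, 58.1, 65.3 and 59.0 with Lip, and 78.6, 71.5 and 70.0 with Lip+ISO. The ISO groups stood apart from their controls and overlapped with each other. Its log2 fold changes were 0.32 ± 0.0758 and 0.27 ± 0.0757 (edgeR adjusted p = 0.00783 and 0.0171). Psmc4 rose by 0.29 and 0.32 (edgeR adjusted p = 0.0205 and 0.00943). The call of Psmc3 with inhibitors (edgeR adjusted p = 0.049) held in 1 of the 12 fits that each left out 1 library.

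The promoter of Psmc6 is shown for a second motif, TGACNNNGC, the core of the antioxidant response element that NFE2L1 and NFE2L2 bind with small MAF proteins (RefSeq, GRCm38.p6, match in capitals).
Psmc6, chr14:45329574-45329873, plus strand: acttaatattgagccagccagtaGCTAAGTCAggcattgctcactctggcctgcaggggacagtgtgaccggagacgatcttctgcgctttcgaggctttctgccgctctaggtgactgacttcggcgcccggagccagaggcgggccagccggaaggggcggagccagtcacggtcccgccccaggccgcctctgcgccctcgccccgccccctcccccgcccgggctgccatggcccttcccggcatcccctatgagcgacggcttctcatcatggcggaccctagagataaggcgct
The match lies on the opposite strand. The motif stood in 4 of 25 promoters of constitutive subunits (16%), those of Psmb5, Psmb6, Psmc6 and Psmd12, against 17.1% of the promoters of tested genes.

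Among the regulatory subunits without ATPase activity, 5 of 11 rose with inhibitors (Psmd1, Psmd2, Psmd12, Psmd13 and Psmd14), where 11.5% of all genes rose. Without inhibitors 1 rose (Psmd12), or 9.09%, where 12.3% of all genes rose. With the replicate block Psmd4, Psmd7 and Psmd12 rose without inhibitors (27.3%), where 18.8% of all genes rose. With inhibitors the block gave the same 5, where 15.5% of all genes rose. Psmd14 is the deubiquitinase that removes ubiquitin chains as the substrate enters (mm9 chr2:61549751-61638433, plus strand). It was at 96.7, 98.2 and 98.0 CPM in vehicle, 108, 103 and 108 with ISO, 91.4, 95.2 and 93.6 with Lip, and 125, 120.3 and 127 with Lip+ISO. The Lip+ISO libraries were above all others, and 11.9% of all genes lay higher in every Lip+ISO library than in every ISO library. The log2 fold change was 0.12 ± 0.0596 without inhibitors (edgeR adjusted p = 0.149) and 0.41 ± 0.0596 with them (edgeR adjusted p = 0.000208).

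Between the groups with ISO, 1 proteasome gene passed, where 4.36% of all genes rose and 4.59% fell (Lip+ISO vs ISO). This was Psmd14, with a log2 fold change of 0.22 ± 0.0595 (edgeR adjusted p = 0.0356), a call that held in 2 of the 15 fits that left out libraries. With the replicate block 2 rose and 1 fell, where 8.48% of all genes rose and 10.8% fell, and at a log2 fold change of at least 1 none passed, where 0.79% rose and 1.2% fell. This comparison uses the same Lip+ISO libraries as that of Lip+ISO vs Lip. The test of the difference between the ISO responses of Psmd14 gave 0.29 ± 0.0842 and did not pass (edgeR adjusted p = 0.128, and 0.048 with the replicate block). For that difference 0 of the 49 genes passed in edgeR, where 0.901% of all genes passed upward and 0.724% downward. At an unadjusted p under 0.05 there were 2 of the 49, against 1868 of all 13543 tested genes. DESeq2 called 2 higher, where it called 2.84% of all genes higher. With the replicate block 1 passed, where 3.15% of all genes passed upward and 3.48% downward. Of the constitutive subunits, 24 of 31 had a difference above 0, against 47.3% of all genes, with a median of 0.0515. With library totals 14 of 31 did, with a median of -0.0163. Without the third ISO library 17 of 31 did, with a median of 0.0079.

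**Figure D4:**
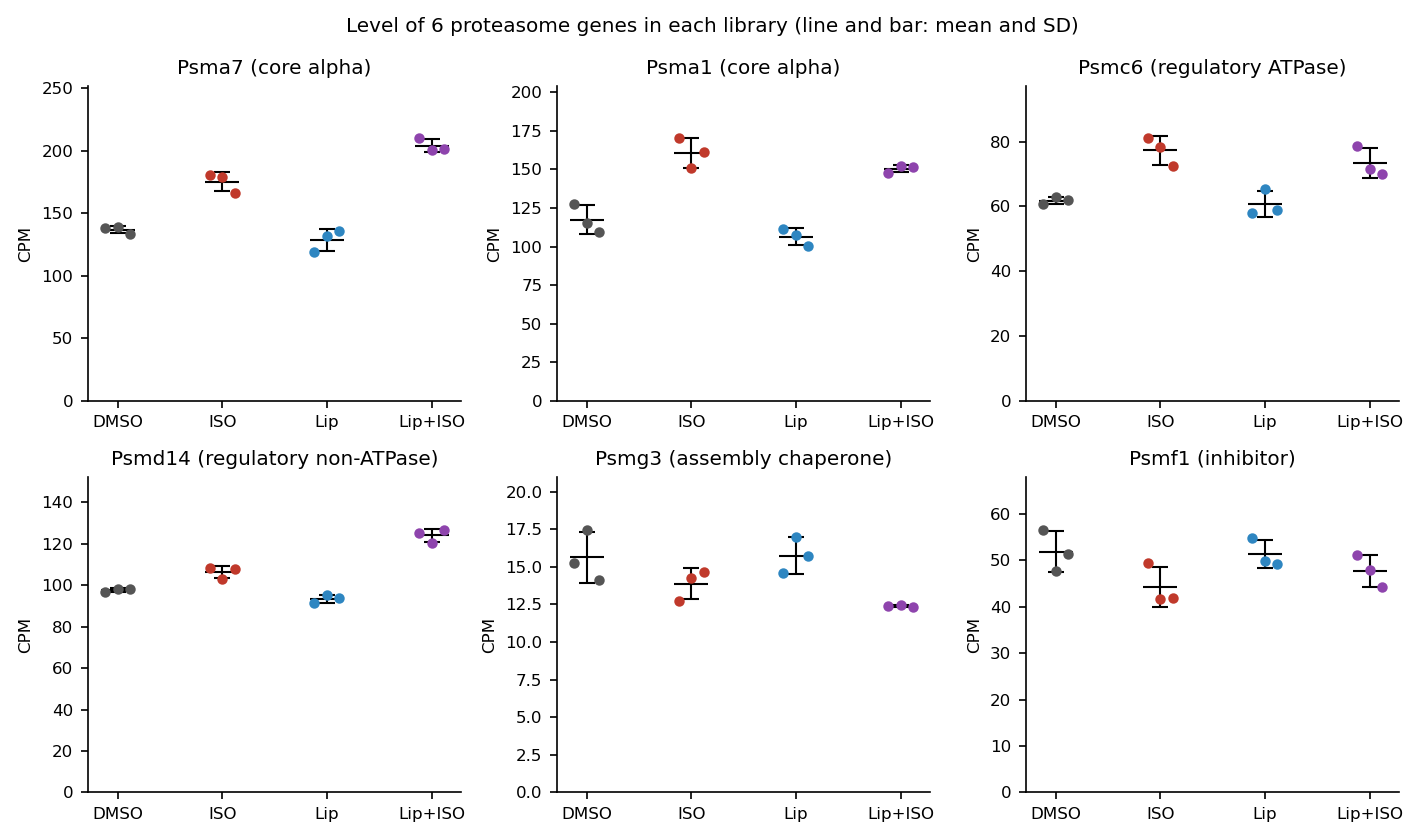
Level of 6 proteasome genes in every library (points), with mean and SD, in CPM. Psma7 (201 to 209.7 CPM) and Psmd14 (120.3 to 127 CPM) are highest in the Lip+ISO libraries, Psma1 and Psmc6 overlap between ISO and Lip+ISO, Psmg3 is lowest with Lip+ISO, and Psmf1 overlaps between groups.

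Psmd12, a lid subunit, was at 89.9, 94.7 and 84.1 CPM in vehicle, 106, 105 and 99.1 with ISO, 85.3, 88.5 and 86.7 with Lip, and 99.9, 103 and 103 with Lip+ISO. Neither ISO group overlapped with its control. Its log2 fold changes of 0.21 ± 0.0658 and 0.24 ± 0.0658 passed (edgeR adjusted p = 0.0343 and 0.0174). The first passed in 5 of the 12 fits that each left out 1 library, and its adjusted p was highest without the third vehicle library (edgeR, 0.167). Psmd8, with the highest mean per length in vehicle, gave the only negative response to ISO among the constitutive subunits. This was -0.11 for ISO vs DMSO (edgeR adjusted p = 0.494), and it gave 0.06 with inhibitors.

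For the inhibitors alone, 0 of the 49 genes passed in either direction (Lip vs DMSO), with 0 at an unadjusted p under 0.05 in edgeR and 0 called by DESeq2, where 0.00738% of all genes rose and 0.0443% fell. Of all 13543 tested genes, 582 had an unadjusted p under 0.05, and DESeq2 called 0.115% of all genes higher and 0.2% lower. The constitutive subunits had a median log2 fold change of -0.02, and 7 of the 31 lay above 0, against 50.6% of all genes. With library totals the median was 0.0107 and 18 of the 31 lay above 0. For Psma7 the value was -0.09, with a 95% interval of -0.23 to 0.05. For Psmd14 it was -0.06, with an interval of -0.18 to 0.05.

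None of the immunoproteasome subunits Psmb8, Psmb9 and Psmb10 passed in any of the 5 comparisons by edgeR. Psmb8 was at 6.98, 6.38 and 4.23 CPM in vehicle, 7.40, 9.00 and 5.97 with ISO, 5.36, 5.99 and 6.06 with Lip, and 4.45, 6.93 and 5.28 with Lip+ISO. Psmb9 was at 4.01, 3.44 and 3.33 CPM in vehicle and 3.08, 2.46 and 3.29 with ISO. The Psmb8 groups overlapped, and each Psmb9 value with ISO lay below those in vehicle, as for 22.6% of all genes. The log2 fold changes for ISO vs DMSO were 0.35 ± 0.227 for Psmb8, -0.29 ± 0.221 for Psmb9 and 0.12 ± 0.109 for Psmb10 (edgeR adjusted p = 0.277, 0.346 and 0.434). With inhibitors they were -0.06, -0.05 and 0.18. Whether these responses differ from those of the constitutive core was not tested.

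Per transcript length, the immune subunits were a small fraction of the constitutive subunits they replace. In vehicle, Psmb8 was 3.07 ± 0.696% of Psmb5, Psmb9 was 3.18 ± 0.228% of Psmb6 and Psmb10 was 9.67 ± 0.440% of Psmb7 (SD, n = 3). With ISO these shares were 3.51 ± 0.708%, 2.41 ± 0.524% and 9.16 ± 0.303%. Over all 12 libraries they lay at 1.78 to 4.29%, 1.89 to 3.40% and 8.06 to 10.5%.

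**Figure D5:**
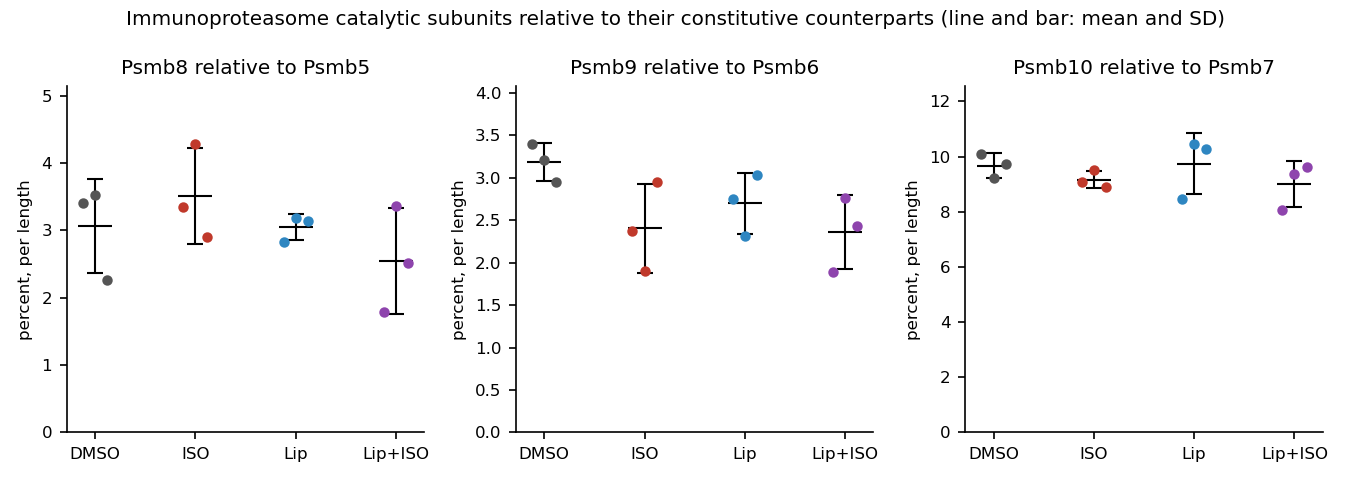
Level of each immunoproteasome catalytic subunit as a percentage of the constitutive subunit it replaces, per counted length, in every library with mean and SD. The shares of Psmb8 and Psmb9 reach at most 4.29% and 3.40%, and that of Psmb10 reaches 10.5%.

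Of 12 listed genes of interferon signalling and antigen presentation, none rose and 2 fell with ISO alone (12.3% and 13.9% of all genes). With inhibitors 1 rose and 2 fell (11.5% and 15.8% of all genes). Log2 fold changes lay above 0 for 2 of the 12 with ISO alone and for 6 with inhibitors. Irf1, a factor that drives immunoproteasome genes, was at 7.14, 9.99 and 9.67 CPM in vehicle and 2.42, 4.66 and 3.81 with ISO. It fell by 1.28 ± 0.350 and by 1.71 ± 0.360 on the log2 scale (edgeR adjusted p = 0.0171 and 0.00323). The other gene that fell was Tap1, a peptide transporter whose start lies within 1000 bases of that of Psmb9 on the opposite strand. Its log2 fold changes were -0.78 and -1.22, against -0.29 and -0.05 for Psmb9, and it was picked after its values were seen.

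The alternative activators cap the core without using ATP, and none of the 5 passed in edgeR. Psme1 and Psme2, the interferon-inducible pair, gave 0.00 and -0.23 for ISO vs DMSO and 0.04 and -0.01 with inhibitors. Psme3, a nuclear cap, gave 0.02 and 0.12. Psme4, another nuclear cap, was at 170.2, 166 and 156 CPM with Lip and 216, 174 and 189.9 with Lip+ISO, and these groups did not overlap. Its log2 fold change there was 0.24 ± 0.0870 (edgeR adjusted p = 0.0604, and 0.0155 with the replicate block), after -0.01 without inhibitors. Psme2b, a copy of Psme2 that overlaps another gene, was at 0.240 to 1.26 CPM. It gave -0.74 ± 0.509 without inhibitors and is uncertain.

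The assembly chaperones put the particle together and leave it when it is complete. Of the 7, none rose, 1 fell with inhibitors, where 15.8% of all genes fell, and 5 had a negative log2 fold change in each comparison. Psmg3, a chaperone of the core, was at 15.3, 17.5 and 14.1 CPM in vehicle, 12.7, 14.3 and 14.7 with ISO, 14.6, 17.0 and 15.7 with Lip, and 12.4, 12.5 and 12.3 with Lip+ISO. The Lip+ISO libraries lay below all others, and 22% of all genes lay lower in every Lip+ISO library than in every Lip library. It fell by 0.35 ± 0.111 on the log2 scale with inhibitors (edgeR adjusted p = 0.035) and gave -0.17 without them (edgeR adjusted p = 0.283). The call was lost without any 1 of the Lip+ISO libraries and without the second or the third Lip library. Psmd5, a chaperone of the regulatory base, gave -0.20 and -0.09 (edgeR adjusted p = 0.22 and 0.658).

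Psmf1, which binds the core and inhibits it in the test tube, was at 56.5, 47.8 and 51.3 CPM in vehicle, 49.3, 41.6 and 41.9 with ISO, 54.9, 49.9 and 49.2 with Lip, and 51.1, 47.9 and 44.2 with Lip+ISO. The groups overlapped. The log2 fold change was -0.23 ± 0.0958 for ISO vs DMSO (edgeR adjusted p = 0.0947, and 0.0126 with the replicate block) and -0.10 with inhibitors. Psma8 and Psmc3ip, at 0 to 0.740 and 0.323 to 1.75 CPM, did not pass. The log2 fold changes of Psma8 were 1.09 ± 0.864 and -1.12 ± 0.920, those of Psmc3ip 0.16 and 0.44.

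Genes outside the symbol rule that work with the particle were taken from a list of 10, of which 9 were tested. With ISO alone 3 rose (Shfm1, Usp14 and Txnl1), with inhibitors 1 rose (Txnl1), and none fell, where 12.3% and 11.5% of all genes rose. Usp14, a deubiquitinase that docks on the regulatory particle, gave 0.20 and 0.18 (edgeR adjusted p = 0.0499 and 0.0634), and its call with ISO alone was lost in 13 of the 15 fits that left out libraries. The ubiquitin receptor Adrm1 gave 0.21 and 0.24 (edgeR adjusted p = 0.0856 and 0.0601). The core assembly factor Pomp gave 0.16 and 0.19 (edgeR adjusted p = 0.25 and 0.194). With the replicate block, Adrm1, Pomp and Usp14 passed in both comparisons, with edgeR adjusted p of 0.0183 to 0.0383.

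Of 9 listed genes of the NFE2L1 pathway, which controls proteasome genes, 2 rose and 2 fell with ISO alone (12.3% and 13.9% of all genes), and 2 rose and 1 fell with inhibitors (11.5% and 15.8% of all genes). Nfe2l1 itself was at 1518, 1257 and 1409 CPM in vehicle and 1159, 1004 and 907 with ISO, and the groups did not overlap. It fell by 0.45 ± 0.113 on the log2 scale (edgeR adjusted p = 0.0119), and gave -0.22 ± 0.113 with inhibitors (edgeR adjusted p = 0.188). Ddi2, the protease that activates NFE2L1 protein, fell by 0.35 ± 0.0874 with ISO alone (edgeR adjusted p = 0.0114) and gave -0.19 with inhibitors (edgeR adjusted p = 0.127).

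Nfe2l2, a related factor of the oxidative stress response, was at 104, 119 and 104 CPM in vehicle, 187, 174 and 159.7 with ISO, 108, 115 and 101 with Lip, and 250.4, 237 and 211 with Lip+ISO. Both ISO groups stood above the groups without ISO, and the Lip+ISO libraries above those of ISO alone, as for 11.9% of all genes. It rose by 0.67 ± 0.0927 and by 1.11 ± 0.0931 on the log2 scale (edgeR adjusted p = 0.000211 and 2.06e-06). The difference of 0.43 did not pass (edgeR adjusted p = 0.14, and 0.0214 with the replicate block). In the direct comparison of Lip+ISO vs ISO, Nfe2l2 passed in edgeR. There 3 of the 9 pathway genes rose and 1 fell, where 4.36% and 4.59% of all genes did. Of 14 listed genes of ubiquitin and its shuttles, 3 rose and 2 fell with ISO alone (12.3% and 13.9% of all genes), and 4 rose and 1 fell with inhibitors (11.5% and 15.8% of all genes).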

How the data were processed

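RNA of 12 libraries (4 groups of 3) was analysed. Per the labels and methods, the authors mapped TruSeq reads to mm9 with STAR 2.4.2a and made a table of raw gene counts with HOMER and iRNA-seq, which was used as deposited. Library totals were 22632220 to 43707557 counts. Here counts were filtered with filterByExpr, scaled with TMM factors and tested with edgeR 4.0.16 (R 4.3.3; quasi-likelihood F-test, two-sided, group means over all 12 libraries). Adjusted p-values are Benjamini-Hochberg values over 13543 genes, and a gene passed at 0.05 with no minimum fold. An interval is the log2 fold change ± 1.96 SE. It is approximate and can be narrower than the F-test implies. For ISO vs DMSO, the intervals of Psma4, Psmc1 and Psmd14 began at 0.00152, 0.00953 and 0.00557. Their unadjusted p-values in edgeR were 0.0706, 0.0589 and 0.0614, all above 0.05. The test was tried on simulated counts.

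The genes and lists were chosen with earlier results of these data known. Named with values were the constitutive and immune catalytic subunits, the activators, Psmf1, the 3 passing genes with the largest change in each direction and comparison, the gene with the largest change in each part, and listed regulators, of which 1 is not reported here. Other members are named where counted, or were chosen after their values were seen.

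Deviations from the group means of libraries with the same replicate number correlated at 0.139 to 0.331 for ISO vs DMSO, 0.192 to 0.298 for Lip+ISO vs Lip, 0.197 to 0.369 for Lip vs DMSO and 0.0373 to 0.311 for Lip+ISO vs ISO. By the limit of 0.1 for every pair, the numbers paired the first 3 comparisons; the pairing comes from the data, since the labels do not state it.

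Alternatives were a replicate block, DESeq2 1.42.0, RLE factors, library totals, no filter, only the groups compared, a log2 fold change of at least 1, each library or replicate number left out, and upper-quartile scaling, which was chosen after seeing the data. Lengths for CPM per kb were those of the count table. Promoters were RefSeq's (GRCm38.p6).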

Additional observations from a re-analysis of the deposited data

How the results depend on the processing

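With a log2 fold change of at least 1 required, 0 proteasome genes rose or fell in any comparison. Library totals gave 4 higher and 1 lower for ISO vs DMSO, 3 higher for Lip+ISO vs Lip and 0 higher for Lip+ISO vs ISO. With totals, 1365, 1069 and 501 of all 13543 tested genes rose in these comparisons, and 2329 fell for ISO vs DMSO. Without the filter on low counts there were 10 higher for Lip+ISO vs Lip and 0 for Lip+ISO vs ISO. Of all genes, 7.23% and 2.69% rose there. RLE factors, and the fit of only the groups compared, gave 0 lower for Lip+ISO vs Lip, and the latter 0 higher for Lip+ISO vs ISO. DESeq2 called 2 higher for Lip+ISO vs ISO and 2 for the difference between the ISO responses, where it called 6.81% and 2.84% of all genes higher. With the replicate block, 15 rose and 1 fell for ISO vs DMSO, 20 and 1 for Lip+ISO vs Lip, 2 and 1 for Lip+ISO vs ISO, and 1 and 0 for the difference. Leaving out libraries gave 1 to 9 higher and 0 to 1 lower for ISO vs DMSO, 3 to 18 higher and 0 to 1 lower for Lip+ISO vs Lip, and 0 to 1 higher for Lip+ISO vs ISO. The lowest counts, 1 and 3, came without replicate 2, where 7.75% and 6.87% of all genes rose. The highest, 9 and 18, came without the third ISO library, where 8.94% and 10.9% of all genes rose. The count for ISO vs DMSO was 4 without the first vehicle or the second ISO library and 3 without the third vehicle library. In these fits 7.69%, 8.67% and 7.72% of all genes rose. The count for Lip+ISO vs Lip was 11 without the first Lip or the first Lip+ISO library, and 10 without the second or the third Lip library. In these fits 9.25%, 10.3%, 9.28% and 9.34% of all genes rose. Signs turned for values that had not passed. For ISO vs DMSO, Psme1 was 0.0117 under RLE factors, 0.00871 in DESeq2 and 0.00542 with only the groups compared, Psme4 was 0.00257 under RLE factors, and Psme3 was -0.0252 under library totals. For Lip+ISO vs Lip, Psme1 was -0.0672 under library totals, and Psme2 was 0.0243 under RLE factors and 0.0210 in DESeq2. With libraries left out, the log2 fold change for Lip+ISO vs Lip ran from -0.247 to 0.0715 for Psmb8, -0.289 to 0.0881 for Psmb9, -0.0526 to 0.871 for Psmc3ip, -0.228 to 0.0567 for Psmd5, -0.000125 to 0.130 for Psme1, -0.0675 to 0.0595 for Psme2 and -0.0763 to 1.18 for Psme2b. For ISO vs DMSO it ran from -0.0334 to 0.376 for Psmc3ip, -0.0658 to 0.0642 for Psme1, -0.0682 to 0.0988 for Psme3 and -0.0670 to 0.0268 for Psme4. The cause of these changes was not tested. Depth limits the genes with few counts, as the SE of 0.509 for Psme2b without inhibitors shows.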
